A study of Mus musculus with 8 samples.

Results

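The cells that 2 antibody depletions leave behind were compared: back-skin keratinocytes from which CD34 positive cells had been removed (CD34 negative) and keratinocytes from which Mts24 positive cells had been removed (Mts24 negative). The comparison holds 4 of the 8 arrays of the series, 1 CD34negative and 1 Mts24negative array of wild type mice and the same of K14Snail mice, and was made within each genotype over all genes that a probe set names singly. Of 19938 such genes, 10720 were tested. All mice were on the CD1 background and 8 weeks old, and K14Snail mice carry the transcription factor Snail under the keratin 14 promoter, which is active in basal keratinocytes. Each array held RNA of a pool of male and female mice, 11 mice for a CD34 array and 9 mice for an Mts24 array. CD34 cells were taken with a biotinylated antibody and a biotin kit, and Mts24 cells with an unlabelled antibody, a PE-labelled secondary antibody and a PE kit, so marker, kit, pool and pool size cannot be told apart in this comparison. Each genotype and fraction has 1 array, and the labels do not tie arrays to separate sorts, so p-values measure the spread between these arrays only.

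CD34 is a surface glycoprotein of stem cells in the bulge, the part of the hair follicle below the sebaceous gland, and its removal takes those cells away. Mts24 is an antibody epitope carried by the product of Plet1, a membrane protein of the upper follicle between the bulge and the sebaceous duct. Neither selection was applied to the cells of the other, so the CD34 negative fraction can hold Mts24 positive cells and the Mts24 negative fraction can hold CD34 positive cells. Interfollicular epidermis, sebaceous cells and cells of the epidermis that are not keratinocytes can stay in both. On these bulk arrays, fewer cells of a type and less RNA per cell cannot be told apart.

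The promoters of Cd34, Plet1, Foxc1 and Cd200 are given because Cd34 and Plet1 encode or carry the antigens of the sorts, and Foxc1 and Cd200 are bulge stem cell genes that passed the test in the direction opposite to Cd34. The windows run from 250 bases before to 50 after the start site, 5′ to 3′ on the strand of the gene, from RefSeq on GRCm38.p6. Capitals mark matches to the searched motifs.
Cd34: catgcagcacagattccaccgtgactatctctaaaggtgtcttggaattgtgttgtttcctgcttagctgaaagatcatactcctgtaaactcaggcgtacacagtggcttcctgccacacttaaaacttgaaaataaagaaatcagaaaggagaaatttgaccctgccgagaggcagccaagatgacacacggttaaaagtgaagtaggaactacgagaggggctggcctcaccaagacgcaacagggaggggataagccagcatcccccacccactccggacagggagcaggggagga
Plet1: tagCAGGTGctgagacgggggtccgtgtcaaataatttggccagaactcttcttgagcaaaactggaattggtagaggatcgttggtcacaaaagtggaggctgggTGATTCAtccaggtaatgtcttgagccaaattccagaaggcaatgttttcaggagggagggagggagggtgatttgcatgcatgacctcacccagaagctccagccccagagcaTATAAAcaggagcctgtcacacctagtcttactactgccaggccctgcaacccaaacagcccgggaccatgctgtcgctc
Foxc1: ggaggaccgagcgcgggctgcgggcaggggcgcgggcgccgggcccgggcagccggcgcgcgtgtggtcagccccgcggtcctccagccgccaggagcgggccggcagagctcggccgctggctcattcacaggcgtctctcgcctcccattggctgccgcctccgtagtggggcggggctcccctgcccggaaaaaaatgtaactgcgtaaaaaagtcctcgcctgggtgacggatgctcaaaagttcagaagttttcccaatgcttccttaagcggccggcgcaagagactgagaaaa
Cd200: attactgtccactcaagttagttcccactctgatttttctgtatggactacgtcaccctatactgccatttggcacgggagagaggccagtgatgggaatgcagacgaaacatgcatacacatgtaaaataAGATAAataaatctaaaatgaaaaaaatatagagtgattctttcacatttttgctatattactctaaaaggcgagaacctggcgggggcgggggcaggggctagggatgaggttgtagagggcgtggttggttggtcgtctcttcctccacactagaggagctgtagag

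The Cd34 window is chr1:194938571-194938870 on the plus strand, that of Plet1 chr9:50494275-50494574 on the plus strand, that of Foxc1 chr13:31806396-31806695 on the plus strand and that of Cd200 chr16:45409004-45409303 on the minus strand. Both strands were searched for TATAAA (the TATA box), AGATAA (a site of GATA factors), CAGGTG (the E-box bound by Snail) and TGANTCA (the AP-1 site); no pair of these overlapped in the 4 windows. Plet1 held TATAAA from base -30, TGATTCA from base -144 and CAGGTG from base -247 relative to the start site, and Cd200 held AGATAA from base -119. None of these letters stood in the Cd34 and Foxc1 windows. Among 32851 promoter windows of the same length, 13.6% held TATAAA, 11.2% AGATAA, 20.2% CAGGTG and 7.81% TGANTCA. GC content was 67.3% in the Foxc1 window, 52.3% in Plet1, 50% in Cd34 and 45% in Cd200. These matches describe the letters and no binding was measured.

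Levels are the authors' log2 values, and a difference is CD34 negative minus Mts24 negative, so that a difference of 1 is 2-fold. Unless a genotype is named, it is the mean of the wild type and the K14Snail pair, with limma's moderated standard error after ±. The test fitted all 8 arrays, in which the positive fractions help to set the spread. At an adjusted p of 0.05 it called 5 of the 10720 genes (0.0466%): 4 higher in CD34 negative cells (0.0373%) and 1 lower (0.00933%), with 2070 genes at an unadjusted p under 0.05. The same model on the 4 negative arrays alone, called the 4-array fit below, has 1 residual degree of freedom and relies more on variance pooled across genes. It called 1596 genes (14.9%), 911 higher (8.5%) and 685 lower (6.39%). Calls of the 4-array fit are given as that fit's, and "rose" and "fell" are kept for the 5 genes of the 8-array fit. None of the 5 calls was kept when any of the 4 negative arrays, or either Mts24 positive array, was left out, and all 5 were kept without either CD34 positive array, where 20 genes passed.

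The fractions differed by little over most genes. At least 2-fold differences were found for 143 genes (1.33%) in the wild type pair, 96 of them higher in CD34 negative cells (0.896%) and 47 lower (0.438%). In the K14Snail pair they were found for 153 genes (1.43%), 62 higher (0.578%) and 91 lower (0.849%). Both pairs showed 24 genes at least 2-fold higher in CD34 negative cells (0.224%) and 30 at least 2-fold lower (0.28%). Across the 10720 genes, which are not independent replicates, the 2 pair differences correlated at r = 0.682 (Spearman's rho = 0.627) and had the same sign for 73.1%. Arrays of the same fraction correlated across genotypes at 0.980 for CD34 negative and 0.983 for Mts24 negative cells, above the 0.972 between the fractions in either genotype. Testing required a log2 level of 7.70, the median over the values of the 19938 genes, on 2 or more of the 8 arrays. The arrays carry no measure of background here, so below 7.70 the size of a difference is uncertain.

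**Figure D1:**
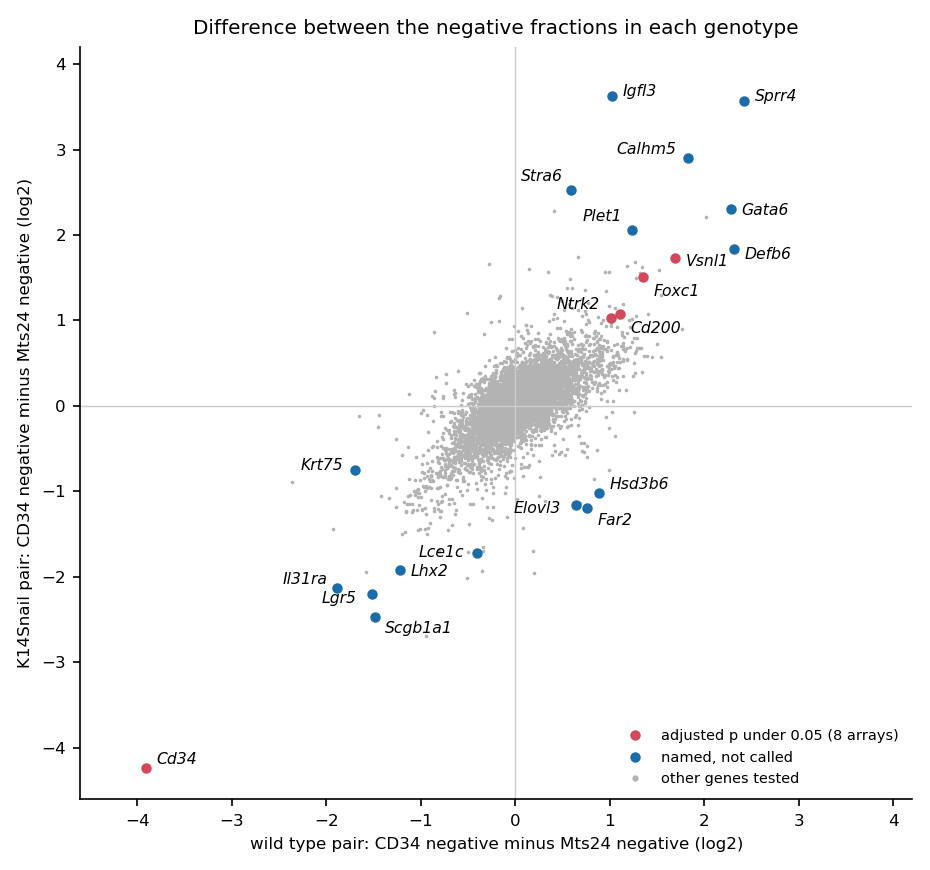
Difference between the negative fractions (CD34 negative minus Mts24 negative, log2) in the wild type pair (x axis) and in the K14Snail pair (y axis), 1 point per tested gene and 1 array per value. Red marks the 5 genes past the threshold of the 8-array fit, blue other named genes; Cd34 lies alone at the lower left, and Elovl3, Far2 and Hsd3b6 lie at the lower right, higher in one pair and lower in the other.

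At the RNA level each sort antigen was lower in the fraction depleted of it. Cd34 fell in CD34 negative cells: its log2 level was 6.12 in wild type and 6.27 in K14Snail CD34 negative cells, against 10.03 and 10.51 in Mts24 negative cells. The difference was -4.07 ± 0.24 (16.8-fold, adjusted p = 0.0235), the largest of all genes tested, and the CD34 negative arrays lay under 7.70. In the CD34 positive arrays the Cd34 level was 13.57 in wild type and 13.29 in K14Snail, so on this scale Mts24 negative cells held 8.60% of the CD34 positive signal in wild type and 14.51% in K14Snail, and CD34 negative cells held 0.572% and 0.769%. These shares come from levels that background can raise and RMA can compress.

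Plet1 lay the other way without passing the 8-array test. Its log2 level was 11.15 in wild type and 11.22 in K14Snail CD34 negative cells and 9.91 and 9.16 in Mts24 negative cells. Both CD34 negative arrays lay above both Mts24 negative arrays, as for 35.3% of all genes. The difference was 1.65 ± 0.20 (adjusted p = 0.0951, and 0.00302 in the 4-array fit). Against the Mts24 positive arrays, at 12.88 and 12.64, CD34 negative cells held 30.2% of the Plet1 signal in wild type and 37.5% in K14Snail, and Mts24 negative cells 12.8% and 8.98%. Plet1 RNA was thus reduced rather than absent after the Mts24 depletion, with both arrays above 7.70.

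The transgene did not separate the fractions. Snai1, the gene of Snail, had log2 levels of 7.99 in wild type and 11.04 in K14Snail CD34 negative cells, and of 7.86 and 10.84 in Mts24 negative cells. The fraction difference was 0.16 ± 0.09 (adjusted p = 0.358). Krt14, the keratin of basal cells whose promoter drives the transgene, lay between 13.28 and 13.79 in the 4 arrays, with a difference of 0.28 ± 0.10 (adjusted p = 0.213).

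The bulge stem cell genes did not move as a block. All 20 listed genes were tested. In the 8-array fit 2 rose and 1, the sort antigen gene Cd34, fell, against 0.0373% and 0.00933% of all genes. In the 4-array fit 6 were higher and 6, Cd34 among them, lower in CD34 negative cells, against 8.5% and 6.39%. Their median difference was 0.17, against 0.05 over all genes tested. Both pairs were positive for 11 of the 20 and negative for 7, against 44.3% and 28.8% of all genes.

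The genes lower in CD34 negative cells include regulators of the bulge. Lgr5, a receptor for R-spondins and a marker of cycling follicle stem cells, was at 6.87 in wild type and 7.07 in K14Snail CD34 negative cells, against 8.39 and 9.28 in Mts24 negative cells (difference -1.86 ± 0.25, adjusted p = 0.106). Lhx2, a transcription factor that maintains bulge stem cells, was at 8.05 and 7.78 against 9.26 and 9.70 (-1.57 ± 0.24, adjusted p = 0.12). Tbx1, a T-box factor of bulge stem cells, was at 7.92 in both genotypes against 9.04 and 9.07 (-1.13 ± 0.18, adjusted p = 0.124). All 3 passed in the 4-array fit (adjusted p between 0.00166 and 0.00258), which called 6.39% of all genes lower. In all 3 the arrays of the 2 fractions did not overlap, as for 21.8% of all genes on this side. Wif1, a secreted Wnt inhibitor (-0.58 ± 0.27), and Fgf18, a growth factor of resting follicles (-0.88 ± 0.36), lay on the same side. In the CD34 positive arrays Lgr5 was at 12.38 and 12.23, Lhx2 at 12.79 and 12.44 and Tbx1 at 12.46 and 11.89, each above the Mts24 positive arrays of its genotype.

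A second set of bulge genes was higher in CD34 negative cells. Foxc1, a forkhead factor that keeps follicle stem cells quiescent, rose: its level was 8.72 in wild type and 8.73 in K14Snail CD34 negative cells against 7.37 and 7.22 in Mts24 negative cells, a difference of 1.43 ± 0.08 (2.70-fold, adjusted p = 0.0235). Cd200, a surface protein of follicle stem cells that restrains immune cells, rose as well, with levels of 8.61 and 8.89 against 7.51 and 7.82 and a difference of 1.09 ± 0.08 (2.13-fold, adjusted p = 0.0364). For Foxc1 both Mts24 negative arrays, and for Cd200 the wild type one, lay under 7.70.

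Fst, the activin and BMP antagonist follistatin, was at 9.72 and 9.80 in CD34 negative cells against 8.52 and 8.79 (1.10 ± 0.13, adjusted p = 0.0844). Sox9, a transcription factor of follicle stem cells, was at 10.34 and 10.38 against 9.81 and 9.82 (0.54 ± 0.08, adjusted p = 0.12). Both passed in the 4-array fit. Krt15, the keratin used to mark the bulge, was at 13.14 and 12.90 against 12.89 and 12.60 (0.27 ± 0.09, adjusted p = 0.212), and Nfatc1 (0.23 ± 0.10) and Tcf7l1 (0.12 ± 0.08) differed by less.

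The positive fractions, whose arrays do not enter these differences, set Foxc1 and Cd200 apart from Cd34, Lgr5, Lhx2 and Tbx1. Foxc1 was at 10.24 and 10.23 in CD34 positive and 10.43 and 10.41 in Mts24 positive cells. Cd200 was at 10.36 and 10.65 in CD34 positive and 10.61 and 10.80 in Mts24 positive cells. Both genes were thus slightly higher after Mts24 selection in both genotypes, whereas Cd34, Lgr5, Lhx2 and Tbx1 were higher after CD34 selection in both genotypes. Fst was mixed, at 11.82 and 12.22 in CD34 positive and 11.96 and 11.93 in Mts24 positive cells. Gas1, a listed bulge gene with a difference of 0.46 ± 0.11, was higher after CD34 selection (11.90 and 11.84 against 10.95 and 10.87). The bulge genes higher in CD34 negative cells thus did not share a direction between the positive fractions. In both genotypes Foxc1, Cd200, Fst and Gas1 were each higher in either positive fraction than in the negative fraction of that marker. So were Cd34, Lgr5, Lhx2 and Tbx1.

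**Figure D2:**
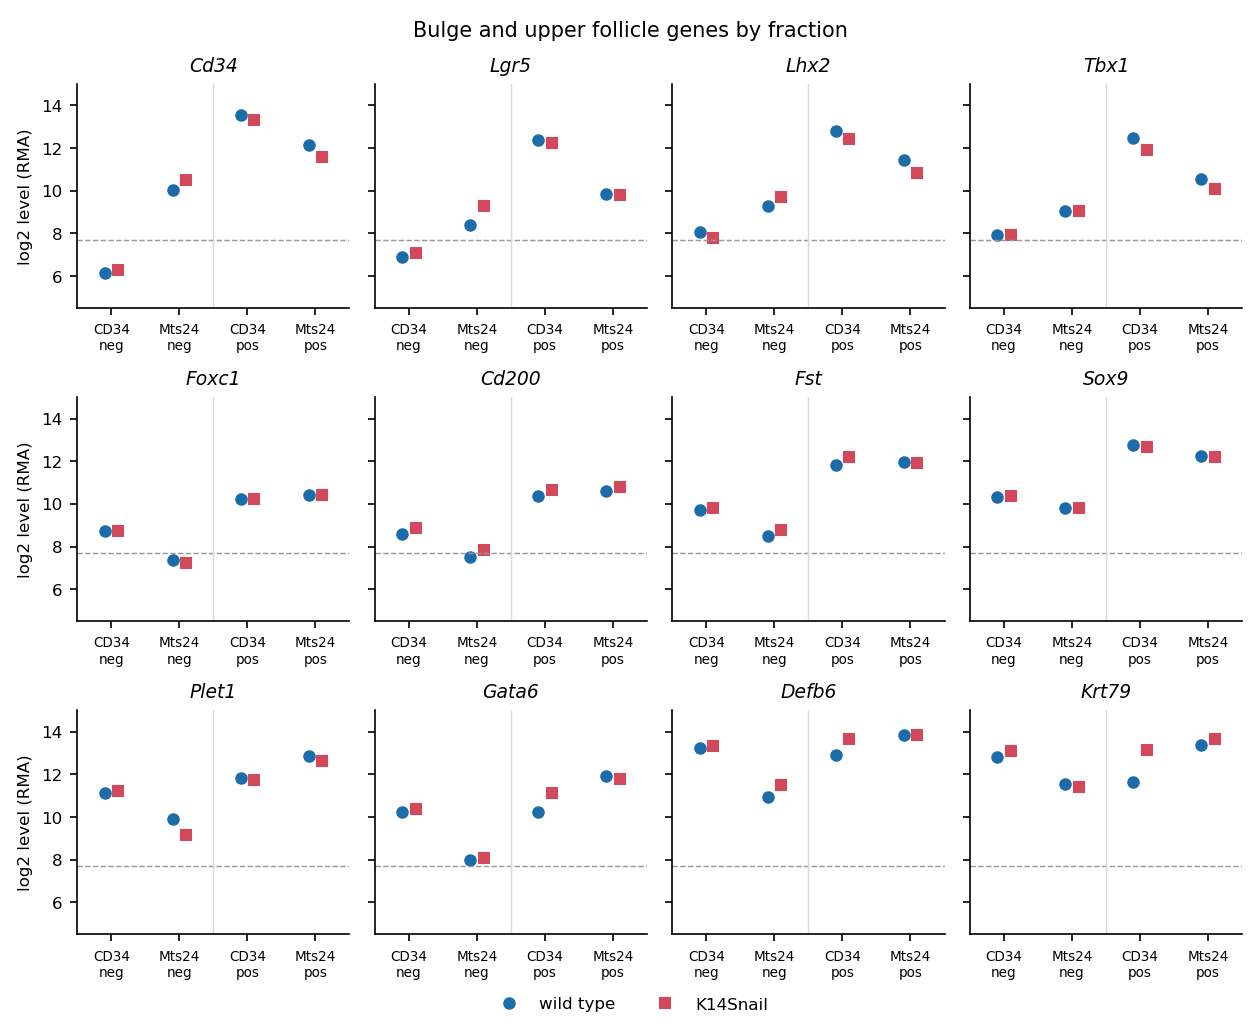
Log2 level (RMA, y axis) of 12 bulge and upper follicle genes in each fraction, 1 array per point, circles for wild type and squares for K14Snail; the dashed line is the filter level of 7.70. In the top row the Mts24 negative points lie above the CD34 negative points, and in the other rows below them.

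Among the lists with 5 or more genes tested, the upper follicle list had the highest median difference over both pairs, although in the wild type pair the cell cycle median was higher. Of 11 listed genes 10 were tested, with a median difference of 0.84 (0.80 in the wild type and 1.04 in the K14Snail pair). The 8-array fit called 0 of them, and the 4-array fit called 8 higher and 1 lower, against 8.5% and 6.39% of all genes. Both pairs were positive for 8 of the 10, against 44.3%. Both counts of 8 include Plet1, whose product carries the Mts24 epitope that the sort selected on.

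Gata6, a transcription factor of the upper follicle and sebaceous duct, was at 10.26 in wild type and 10.40 in K14Snail CD34 negative cells against 7.98 and 8.10 in Mts24 negative cells (2.29 ± 0.23, adjusted p = 0.0659; 0.000136 in the 4-array fit). Defb6, a beta-defensin, was at 13.25 and 13.34 against 10.93 and 11.50 (2.08 ± 0.20, adjusted p = 0.0659). Krt79, a keratin of the cells that line the follicle opening, was at 12.82 and 13.11 against 11.55 and 11.42 (1.48 ± 0.36, adjusted p = 0.162). No array of these 3 genes overlapped between the fractions, as for 35.3% of all genes on this side. Gata6 in Mts24 negative cells stood at 6.54% of its Mts24 positive signal in wild type and 7.82% in K14Snail, and in CD34 negative cells at 31.8% and 38.7%.

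Other genes of the upper follicle list, Plet1 aside, differed by less. Lrig1, an inhibitor of EGF receptor signalling, was at 10.77 and 10.80 in CD34 negative cells against 10.06 and 9.55 (0.98 ± 0.30, adjusted p = 0.189), and Cst6, a cysteine protease inhibitor, at 12.39 and 12.70 against 11.81 and 11.86 (0.71 ± 0.10, adjusted p = 0.114). Lgr6, a receptor of the Lgr5 family, had a difference of 0.71, and Krt17, a follicle keratin, of 0.35 ± 0.08. Teddm3 (-0.67) and Atp6v1c2 (-0.32) lay on the other side in both pairs.

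The other 2 genes that rose are outside the gene lists. Vsnl1, a neuronal calcium sensor protein, was at 10.69 in wild type and 10.60 in K14Snail CD34 negative cells against 8.99 and 8.87 in Mts24 negative cells, a difference of 1.71 ± 0.13 (3.28-fold, adjusted p = 0.0364). Ntrk2, the receptor for brain-derived neurotrophic factor, was at 8.78 and 9.11 against 7.77 and 8.08, a difference of 1.02 ± 0.08 (2.03-fold, adjusted p = 0.0455). Vsnl1 was between 11.86 and 12.36 in the 4 positive arrays. Ntrk2 was lower in CD34 positive (7.95 and 8.24) than in Mts24 positive cells (9.02 and 9.45) in both genotypes.

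Genes with larger differences missed the threshold of the 8-array fit. Sprr4, a small proline-rich protein of the cornified envelope, was at 10.49 in wild type and 11.82 in K14Snail CD34 negative cells against 8.07 and 8.25 (2.997 ± 0.43, adjusted p = 0.111). Gsdma3, a gasdermin of skin, was at 8.46 and 8.99 against 6.44 and 6.78 (2.11 ± 0.19, adjusted p = 0.0659), and Calhm5, of the calcium homeostasis modulator family, at 8.55 and 9.15 against 6.73 and 6.24 (2.36 ± 0.33, adjusted p = 0.106). Both had Mts24 negative arrays under 7.70.

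Itgb8, an integrin subunit that activates TGF-beta (1.48 ± 0.15), Adgrl3, an adhesion receptor (1.44 ± 0.18), and Aadac, a lipid deacetylase (1.56 ± 0.36), had differences of more than 2-fold in each pair. For Itgb8 and Adgrl3 both Mts24 negative arrays lay under 7.70, so the sizes are uncertain. Stra6, a retinol transporter, differed by 0.59 in the wild type and 2.53 in the K14Snail pair. All of the genes named in these 2 paragraphs passed in the 4-array fit, where the highest adjusted p, that of Stra6, was 0.0342.

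Of the 24 genes at least 2-fold higher in CD34 negative cells in both pairs, 16 were higher in Mts24 positive than in CD34 positive cells in both genotypes, 2 were lower and 6 differed in sign. Over all genes tested, 30.1% were higher in Mts24 positive and 38.2% in CD34 positive cells in both genotypes. The 24 and the 16 include Plet1, whose product carries the Mts24 epitope that the sort selected on. Igfl3, an insulin growth factor-like family member, was among the 24, with a difference of 1.02 in the wild type and 3.63 in the K14Snail pair. So were Car12, a carbonic anhydrase (1.55 and 1.30), Slco2b1, an organic anion transporter (1.28 and 1.498), and Nqo1, a quinone reductase (1.24 and 1.02). These 4 were picked after their values were seen. The Mts24 negative arrays of Slco2b1 and Nqo1 lay under 7.70, as did both wild type negative arrays of Igfl3, so these sizes are uncertain.

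The 30 genes at least 2-fold lower in CD34 negative cells in both pairs were counted the same way. In both genotypes 8 of them (26.7%) were higher in CD34 positive than in Mts24 positive cells, against 38.2% of all genes. The 8 include Cd34, the gene of the antigen that the sort selected on. In both genotypes 20 (66.7%) were higher in Mts24 positive cells, against 30.1% of all genes. The 30 thus hold genes of more than 1 pattern.

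Genes of the CD34 positive pattern included Angptl7, a secreted angiopoietin-like protein, at 6.77 in wild type and 6.80 in K14Snail CD34 negative cells against 8.35 and 8.75 in Mts24 negative cells (-1.76 ± 0.21, adjusted p = 0.0951). Il31ra, a subunit of the interleukin 31 receptor, was at 6.29 and 6.05 against 8.18 in both genotypes (-2.01 ± 0.30, adjusted p = 0.117). Grem1, a BMP antagonist, was at 7.05 and 7.54 against 8.97 and 8.98 (-1.68 ± 0.39, adjusted p = 0.153). In CD34 positive cells Angptl7 reached 12.49 and 12.70, Il31ra 12.01 and 11.30 and Grem1 12.52 and 12.12. Krt75, a keratin of the companion layer around the hair shaft, was not among the 30. It differed by -1.22 ± 0.22 (-1.70 in the wild type and -0.75 in the K14Snail pair).

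Genes of the other pattern were higher in Mts24 negative cells than in any other fraction of their genotype. Ereg, an EGF receptor ligand, was at 8.08 and 8.27 in CD34 negative and 9.50 and 9.32 in Mts24 negative cells (-1.24 ± 0.30, adjusted p = 0.161), and between 6.34 and 8.22 in the positive arrays. Btc, another EGF receptor ligand, was at 9.47 and 8.60 against 10.50 and 10.06 (-1.24 ± 0.27, adjusted p = 0.151), with positive arrays between 7.64 and 10.003. Scgb1a1, a secretoglobin, was at 8.64 and 7.61 against 10.13 and 10.07 (-1.98 ± 0.64, adjusted p = 0.204), with positive arrays between 5.99 and 9.73. Sdr9c7 (-1.15 ± 0.58) and Aloxe3 (-1.08 ± 0.37), enzymes of the lipid barrier of the skin, and Cnfn, cornifelin of the cornified envelope (-1.17 ± 0.52), belonged here too, picked after their values were seen.

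The suprabasal differentiation genes lay lower in CD34 negative cells. Of 22 listed genes 19 were tested, with a median difference of -0.62 (-0.49 in the wild type and -0.63 in the K14Snail pair). The 8-array fit called 0, and the 4-array fit called 0 higher and 11 lower, against 8.5% and 6.39% of all genes. The median was -0.34 without the wild type CD34 negative array and -0.24 without the K14Snail Mts24 negative array. Both pairs were negative for 17 of the 19, against 28.8% of all genes, and for 16 of them both CD34 negative arrays lay below both Mts24 negative arrays, against 21.8%.

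Genes of the cornified envelope carried the lowest values of the list. Tgm1, the transglutaminase that crosslinks the cornified envelope, was at 10.14 and 10.32 in CD34 negative cells against 11.04 and 11.14 (-0.86 ± 0.33, adjusted p = 0.237; 0.00284 in the 4-array fit). Ivl, the envelope protein involucrin, was at 11.08 and 11.15 against 11.83 and 11.97 (-0.78 ± 0.38, adjusted p = 0.313). Kprp (-0.94 ± 0.52) and Flg2 (-0.83 ± 0.36), proteins of the cornified layer, lay lower in both pairs. Lce1c, a late envelope protein, differed by -0.41 in the wild type and -1.72 in the K14Snail pair. Krt1 and Krt10, the keratins of the first suprabasal layer, had smaller differences of -0.10 ± 0.41 and -0.12 ± 0.17, and Tgm3 (0.29) and Mt4 (0.30) were the 2 genes higher in both pairs.

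Basal and proliferation genes lay on the other side. Of 15 listed basal epidermis genes 13 were tested, with a median difference of 0.54, and the 4-array fit called 8 higher and 0 lower, against 8.5% and 6.39% of all genes, the 8-array fit 0. The list's examples are parts of the anchorage to the basement membrane. Itga6 was at 12.20 in wild type and 12.38 in K14Snail CD34 negative cells against 11.63 and 11.87 in Mts24 negative cells (0.54 ± 0.14, adjusted p = 0.171), and Itga3 at 10.21 and 10.32 against 9.37 and 9.60 (0.78 ± 0.23, adjusted p = 0.184). Lamb3, a laminin chain, differed by 0.71 ± 0.21 and Dst, which links hemidesmosomes to keratin, by 0.68 ± 0.22.

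Of 29 listed cell cycle genes 27 were tested, and the median difference was 0.80 (0.97 in the wild type and 0.53 in the K14Snail pair). Both pairs were positive for 26 of the 27, against 44.3% of all genes, and for 26 both CD34 negative arrays lay above both Mts24 negative arrays, against 35.3%. The 8-array fit called 0 and the 4-array fit 25 higher and 0 lower, against 8.5% and 6.39%. The median was 0.36 without the wild type CD34 negative array. Mki67, the Ki-67 antigen of dividing cells, was at 9.84 and 9.92 in CD34 negative cells against 8.63 and 8.99 (1.07 ± 0.58, adjusted p = 0.357; 0.00221 in the 4-array fit). Cdk1, the mitotic kinase, was at 9.71 and 9.74 against 8.38 and 9.06 (1.01 ± 0.43, adjusted p = 0.275), and Plk1, Ccna2, Ccnb2 and Top2a differed by 1.01, 0.99, 0.93 and 0.91. Rrm2, a subunit of ribonucleotide reductase, was the exception at -0.05.

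In the positive arrays the cell cycle genes varied with genotype: Mki67 was at 8.30 in wild type and 10.74 in K14Snail CD34 positive cells, and at 10.22 and 10.36 in Mts24 positive cells. The spread of these arrays enters the 8-array fit and its standard errors, and not the 4-array fit.

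**Figure D3:**
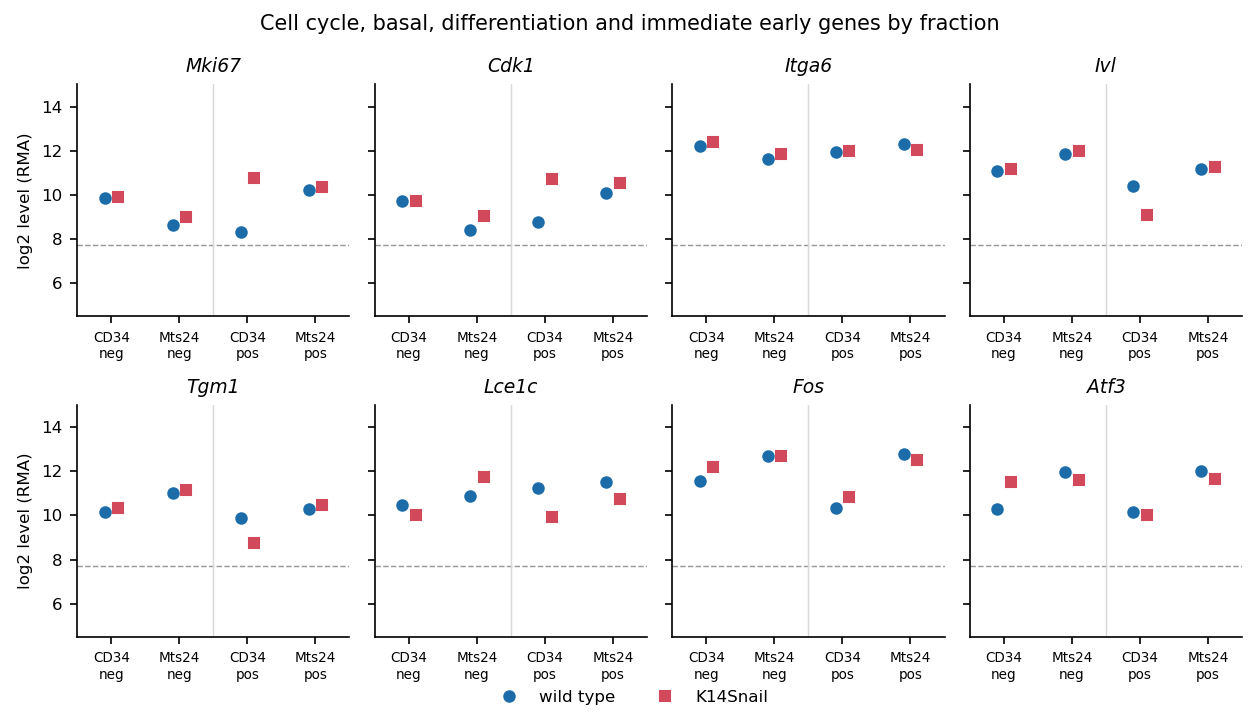
Log2 level (RMA, y axis) of 8 cell cycle, basal, differentiation and immediate early genes in each fraction, 1 array per point, circles for wild type and squares for K14Snail; the dashed line is the filter level of 7.70. Mki67, Cdk1 and Itga6 are higher in CD34 negative than in Mts24 negative cells in both genotypes, and Ivl, Tgm1, Lce1c, Fos and Atf3 lower.

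Immediate early genes, which respond within minutes to growth factors and to stress such as cell isolation, were lower in CD34 negative cells. Of 17 listed genes 16 were tested, with a median difference of -0.50 (-0.71 in the wild type and -0.17 in the K14Snail pair), and both pairs were negative for 14, against 28.8% of all genes. The 8-array fit called 0, and the 4-array fit 1 higher and 6 lower, against 8.5% and 6.39% of all genes. Without the wild type CD34 negative array the median was -0.21, and without the wild type Mts24 negative array -0.32. Zfp36, a protein that destabilises messenger RNA, was at 10.84 and 11.27 in CD34 negative cells against 11.89 and 11.87 (-0.83 ± 0.15, adjusted p = 0.136), and Fos, a subunit of AP-1, at 11.55 and 12.20 against 12.69 and 12.68 (-0.80 ± 0.23, adjusted p = 0.184). Atf3, a stress-responsive factor, differed by -1.66 in the wild type and -0.12 in the K14Snail pair. Among the negative arrays its low value was thus that of the wild type CD34 negative array. Egr2 was the gene called higher in the 4-array fit, with a difference of 0.51. In CD34 positive cells Fos was at 10.33 and 10.84 and Atf3 at 10.15 and 10.04. In Mts24 positive cells Fos was at 12.81 and 12.53 and Atf3 at 12.01 and 11.64. For both genes the CD34 arrays, positive and negative, thus lay below all Mts24 arrays. Egr3 did not follow this in K14Snail, at 9.48 in CD34 negative and 9.41 in Mts24 positive cells. The part of the sorts in these values, and of immediate early genes in the other differences, was not tested.

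**Figure D4:**
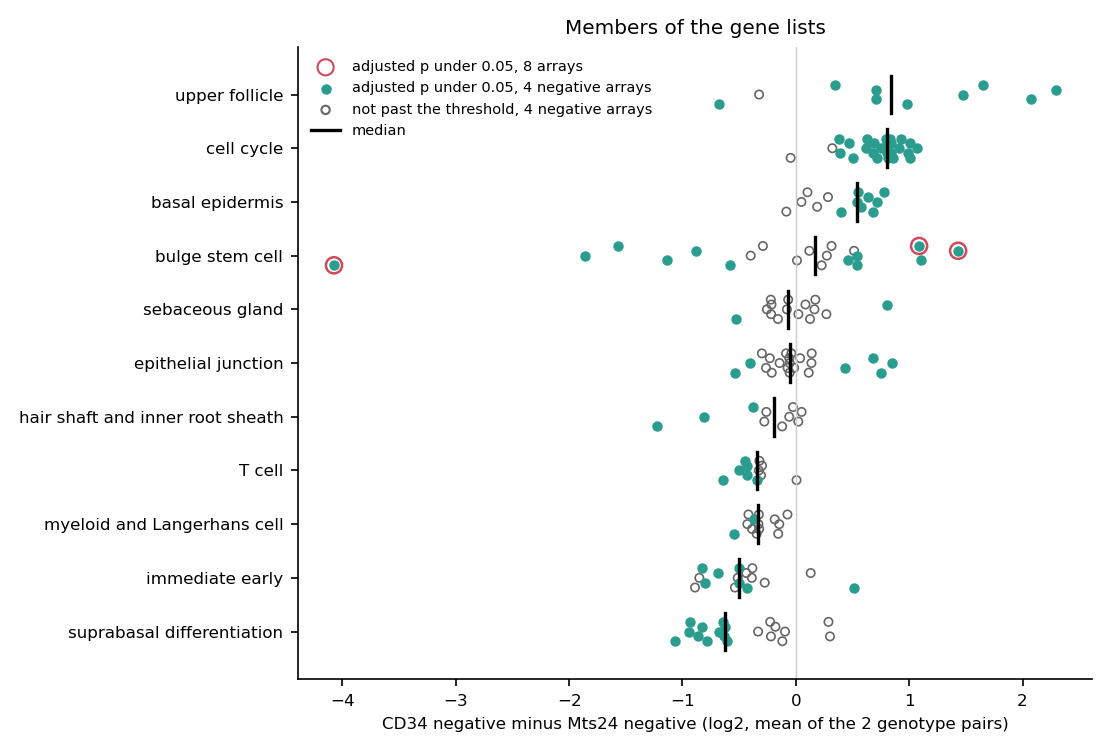
Difference between CD34 negative and Mts24 negative cells (log2, mean of the 2 genotype pairs, x axis) for the tested members of 11 gene lists (y axis); filled points passed the 4-array fit, red rings mark the 3 bulge genes that passed the 8-array fit, and black bars are list medians. Upper follicle, cell cycle and basal lists lie mostly to the right of 0, suprabasal and immediate early lists mostly to the left, and the bulge list on both sides.

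Many sebaceous gland genes gave opposite differences in the 2 genotypes. Of 20 listed genes 15 were tested, with a median difference of 0.65 in the wild type pair and -0.49 in the K14Snail pair. For 9 of the 15 (60%) the wild type difference was positive and the K14Snail difference negative, against 13.6% of all genes, while 3 were positive and 3 negative in both pairs. Of the 19 on the array, 12 lay under 7.70 in the K14Snail CD34 negative array and 9 in the K14Snail Mts24 negative array, against 4 and 6 in wild type, so the sizes of their K14Snail differences are uncertain. At 0.5 or more in each direction there were 7 such sebaceous genes, of 12 among all genes tested: Scd3, Mc5r, Elovl3, Pparg, Far2, Fa2h and Hsd3b6. With 1 array per genotype and fraction the difference between the pairs was not tested.

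Far2, a fatty acyl-CoA reductase for wax esters, was at 10.37 in wild type and 7.04 in K14Snail CD34 negative cells, and at 9.60 and 8.24 in Mts24 negative cells. Fa2h, the fatty acid 2-hydroxylase, was at 10.56 and 7.22, and at 9.87 and 8.35. Hsd3b6, a steroid dehydrogenase, was at 9.41 and 6.38, and at 8.52 and 7.41. In each, the wild type CD34 negative array was the highest and the K14Snail CD34 negative array the lowest of the 4. In wild type and K14Snail CD34 positive cells Far2 was at 11.17 and 7.60, Fa2h at 11.05 and 7.37 and Hsd3b6 at 9.62 and 6.29. In Mts24 positive cells Far2 was at 9.52 and 9.10, Fa2h at 9.50 and 8.86 and Hsd3b6 at 7.42 in both. The gap between the genotypes was thus in both CD34 fractions, and smaller in both Mts24 fractions. Lipid synthesis genes shared with other epidermal cells did not oppose: Fasn, fatty acid synthase, differed by -0.24 and -0.20 and Dgat2, which makes triglycerides, by -0.55 and -0.49. Mgst1, a glutathione transferase, was higher in both pairs (1.03 and 0.57).

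**Figure D5:**
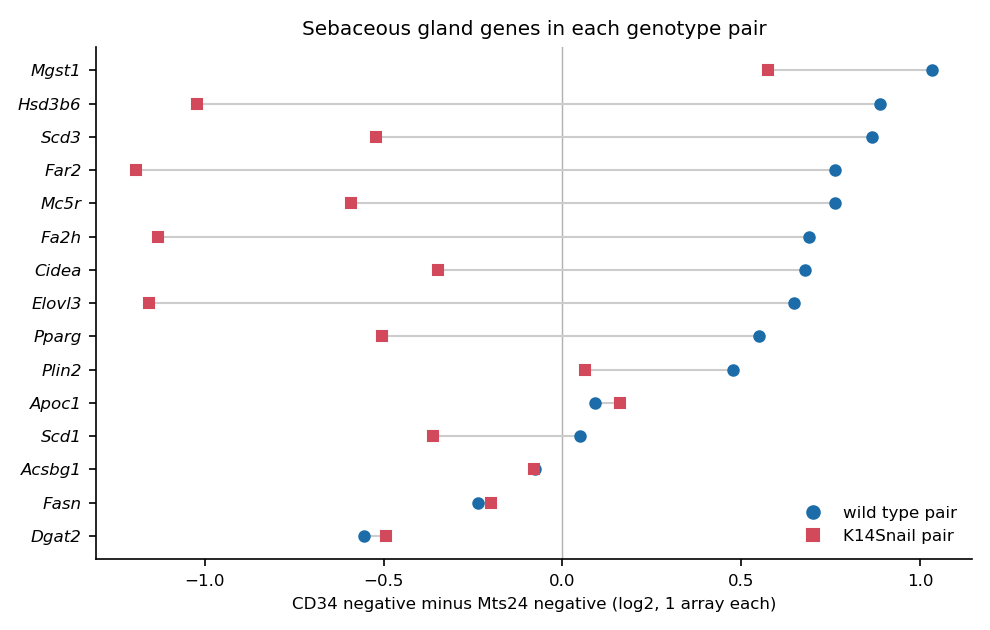
Difference between CD34 negative and Mts24 negative cells (log2, x axis) for the 15 sebaceous gland genes tested (y axis), circles for the wild type pair and squares for the K14Snail pair, 1 array each. For 9 genes the circle lies right of 0 and the square left of it.

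The other genes whose pairs opposed most were not of the sebaceous list. Serpinb11, a serpin of the epithelium, differed by 0.20 in the wild type and -1.95 in the K14Snail pair, with all 4 negative arrays between 4.80 and 6.75 and thus under 7.70. Pyy, peptide YY, was at 8.79 and 10.005 in CD34 negative and at 8.60 and 11.71 in Mts24 negative cells, so both K14Snail arrays exceeded the wild type ones. Snora3, a small nucleolar RNA, differed by -0.28 and 1.66.

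The signalling lists had medians nearer to that of all genes. Of 25 Wnt pathway genes tested the 4-array fit called 6 higher and 2 lower, against 8.5% and 6.39% of all genes. The list median was 0.13. Fzd7, a Wnt receptor, was at 10.26 and 10.31 in CD34 negative cells against 9.35 and 9.68 (0.76 ± 0.10, adjusted p = 0.106), and the ligands Wnt10a (0.65 ± 0.15) and Wnt16 (0.63 ± 0.16) lay on the same side. Fzd2, another receptor, lay on the other (-0.47 ± 0.21).

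Of 8 Hedgehog genes tested the 4-array fit called 4 higher and 0 lower, against 8.5% and 6.39% of all genes. The list median was 0.15. The other 4 were negative in both pairs, against 28.8% of all genes. The median was 0.003 with no filter and 0.55 with the filter on the 4 negative arrays, so it depends on which dim genes enter. Without the K14Snail Mts24 negative array it was 0.32. The genes called higher included the co-receptor Boc (0.73 ± 0.12), the transducer Smo (0.63 ± 0.11) and the transcription factor Gli3 (0.70 ± 0.20). The pathway target Gli1 was at -0.29 ± 0.22, with all 4 negative arrays under 7.70. Of 11 Notch genes 3 were called higher and 0 lower, against 8.5% and 6.39% of all genes, with a median of 0.16. The 3 were the ligands Jag2 (0.85 ± 0.18) and Dll1 (0.79 ± 0.20) and the glycosyltransferase Lfng (0.50 ± 0.14).

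Of 26 BMP and TGF-beta genes 7 were called higher and 4 lower by the 4-array fit, against 8.5% and 6.39% of all genes. The list median was -0.01. The antagonists split: Sostdc1 was at 11.95 and 11.94 in CD34 negative cells against 10.99 and 10.59 (1.16 ± 0.16, adjusted p = 0.106), on the side of Fst, whereas Grem1 was lower. Ltbp2, named as a latent TGF-beta binding protein, was lower too (-0.63 ± 0.25), with both CD34 negative arrays under 7.70. Of 22 epithelial junction genes 4 were called higher and 2 lower, against 8.5% and 6.39% of all genes. Both pairs were negative for 13 of the 22, against 28.8% of all genes, and positive for 7, against 44.3%. The median was -0.05. The called genes included Dsg2, a desmosomal cadherin (0.85 ± 0.22), Cldn8, a tight junction protein (0.75 ± 0.20), and Cdh3, P-cadherin (0.68 ± 0.15), on one side and Cgn, cingulin (-0.54 ± 0.19), and Cldn4, a tight junction protein (-0.40 ± 0.23), on the other. The 8-array fit called 0 genes of the Wnt, Hedgehog, Notch and junction lists and 0 of the BMP and TGF-beta list.

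Of 8 interferon response genes tested the 4-array fit called 2 higher and 0 lower, against 8.5% and 6.39% of all genes. The list's median difference was 0.01 in the wild type and 0.47 in the K14Snail pair. Oasl2, an antiviral protein, differed by 0.39 and 1.29. Of 8 wound-associated genes tested the 4-array fit called 2 higher and 1 lower, against the same shares of all genes. Stfa3, a stefin, was at 1.41 ± 0.42, Sprr2d at -0.63 ± 0.60 and the stress keratin Krt16 at 0.50 ± 0.39. Krt6a was at 7.04 and 8.72 in CD34 negative and at 7.90 and 7.85 in Mts24 negative cells, so that its pairs opposed (-0.86 and 0.87).

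Markers of T cells, myeloid cells and melanocytes had medians over both pairs below that of all genes, and their part in the differences above was not tested. Of 15 T cell markers on the array 11 were tested, 10 were negative in both pairs, against 28.8% of all genes, and the median difference was -0.34. Leaving out 1 negative array moved this median to between -0.64 (without the wild type CD34 or the K14Snail Mts24 negative array) and -0.11 (without the K14Snail CD34 negative array). The mean level over the T cell list was 8.89 in wild type and 8.60 in K14Snail CD34 negative cells and 9.23 and 8.93 in Mts24 negative cells. Cd3e, a chain of the T cell receptor complex, was at 11.29 and 10.68 against 11.94 and 11.33 (-0.65 ± 0.25, adjusted p = 0.238), so T cell transcripts were present in all 4 negative arrays.

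Of 17 myeloid and Langerhans cell markers 13 were tested, with a median of -0.33 (-0.13 in the wild type and -0.53 in the K14Snail pair) and list means of 8.78 and 8.41 against 8.89 and 8.85. Cd207, langerin, was at 8.48 and 8.10 against 8.71 and 8.65 (-0.39 ± 0.41), and Fcer1g, an immune receptor chain, at 9.50 and 8.68 against 9.95 and 9.32 (-0.55 ± 0.31). The myeloid median turned to 0.34 without the K14Snail CD34 negative array and 0.07 without the wild type Mts24 negative array, and was -0.94 and -0.73 without the other negative arrays, so its direction rests on single arrays. The 4-array fit called 6 T cell and 2 myeloid markers lower and 0 higher, against 6.39% of all genes lower, and the 8-array fit 0 of either.

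Of 12 melanocyte markers 7 were tested, with a median of -0.31, and Dct, a melanin enzyme, was at 9.28 and 9.38 against 9.34 and 9.95. Of 20 hair shaft and inner root sheath genes on the array 10 were tested. The 4-array fit called 0 higher and 3 lower, against 8.5% and 6.39% of all genes. All 12 endothelial markers, all 7 adipocyte and both erythroid markers on the array lay under 7.70 in all 4 negative arrays. So did 7 of 13 fibroblast, 9 of 11 pericyte and smooth muscle, 8 of 9 skeletal muscle, 9 of 10 neutrophil, 7 of 8 mast cell, 7 of 9 Merkel cell and 2 of 4 Schwann cell markers. Cck, a peptide gene of the Merkel list, was at 6.98 and 6.91 against 7.79 and 8.11, and at 11.04 and 10.21 in CD34 positive cells.

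Pools were of mixed sex in unstated proportion. Xist, which is expressed in females, differed by 0.06 ± 0.12, and the Y-linked genes Eif2s3y, Kdm5d and Uty by 0.35, 0.08 and 0.10 in the wild type and 0.79, 1.15 and 0.73 in the K14Snail pair. The K14Snail CD34 negative array was thus the highest of the 4 for all 3 Y-linked genes, and the part of the sex make-up of the pools in the K14Snail differences was not tested.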

How the data were processed

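Expression was measured on 8 Affymetrix whole-transcript arrays, 1 per genotype, marker and fraction. The deposited values are log2 levels per probe set that the authors made with RMA, per the submitters' processing notes; RMA corrects background, normalizes between arrays and compresses large differences. Of 28874 probe sets, 21789 have 1 gene symbol in the platform annotation, 1621 several and 5464 none; 21698 matched a RefSeq gene by Entrez identifier, with 0 symbols changed. The probe set with the highest mean was kept for 999 genes with several, and no 2 arrays were identical. Close paralogues, such as the Lce and Sprr families, can share probe signal.

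Differences were tested with limma 3.58.1 (R 4.3.3) on 4 fractions and genotype over 8 arrays, without a pool block, with 3 residual degrees of freedom and Benjamini-Hochberg adjustment over all genes tested; the filter required 7.70 on 2 of 8 arrays. Precision is limited by the number of arrays. The model was tested on simulated data. Tables and plots used Python 3.11.15, pandas 2.3.3, numpy 2.4.6 and matplotlib 3.10.9. Alternatives changed the block, arrays, genotype term, scaling, filter, probe-set rule and variance prior, or left out 1 array. Named genes were up to 15 per direction, up to 6 per list and any called member, the antigens, Snai1, Krt14 and the 6 genes with the most opposed pairs; other genes named, list members included, were chosen after their values were seen. The members, lists and tests were chosen with earlier results of these data known.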

Additional observations from a re-analysis of the deposited data

Results flagged for a closer look

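Among all genes tested, 14 had a wild type and a K14Snail pair that differed by at least 0.5 on the log2 scale in opposite directions, 12 with the wild type pair positive and 2 with it negative. The values are those of 1 array each, and the difference between the pairs was not tested. Of the 14, 8 are in the gene lists and are given here, 7 of them in the sebaceous list. The wild type and K14Snail differences (CD34 negative minus Mts24 negative) were 0.65 and -1.16 for Elovl3, a fatty acid elongase, 0.69 and -1.13 for Fa2h, and 0.76 and -1.19 for Far2. They were 0.89 and -1.02 for Hsd3b6, 0.76 and -0.59 for Mc5r, a melanocortin receptor of sebaceous cells, and 0.55 and -0.50 for Pparg, the nuclear receptor of lipid-storing cells. Scd3, a fatty acid desaturase, had 0.86 and -0.52. Krt6a, a stress keratin of the wound-associated list, went the other way with -0.86 and 0.87. The other genes of the 14, which are in no list, are Cers4, Cyp2f2, Fn1, Hmcn1, Macroh2a2 and Tmem45b, named after their values were seen.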

How the results depend on the processing

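The count of 5 genes (4 higher, 1 lower) became 1596 (911 and 685) on the 4 negative arrays with genotype, and 24 (8 and 16) without the genotype term, where 3 of the 5 passed. It was 2 (1 higher) after a further quantile normalization, 11 (9 and 2) with a filter 1 log2 unit stricter, and 12 (11 higher) with a trended, robust prior. With genotype by marker as a random block (correlation -0.175) 7 genes passed; this takes the positive and negative fractions of a marker to share a pool, which the labels do not say. Leaving out 1 array gave 0 to 20 genes, 0 to 17 higher and 0 to 3 lower; where 0 passed, the lowest adjusted p lay between 0.1003 and 0.479 and 884 to 2019 genes had an unadjusted p under 0.05. Without 1 negative array the lone array is assumed to vary like the others. No called difference among the 154 named genes changed sign under these alternatives, and the counts of genes at least 2-fold apart stayed within 1.5 times. List medians moved by more than the SD between the 2 pairs in 50 cases and by less in 292. On leaving out an array the median of the Wnt list ran from 0.08 to 0.24, of the Notch list from 0.01 to 0.21, of the interferon list from -0.01 to 0.48, of the wound-associated list from 0.01 to 0.40, of the basal list from 0.36 to 0.57, of the melanocyte list from -0.35 to -0.08, of the bulge list from 0.05 to 0.24 and of the sebaceous list from -0.22 to 0.48. Leaving out an array of the 4-array fit leaves no residual degree of freedom, so its calls have no such check. Genotype pairs the arrays in the model and in the 4-array fit; a block by replicate number could not be fitted, since the labels number no replicates.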
